A study of Arabidopsis thaliana with 12 samples.

Results

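The 51 genes described here are those whose normalized hybridization signal was on average at least doubled in lit against dark Arabidopsis thaliana plants. The lit plants had 12 h of darkness and then 30 min of light, and the dark plants only the 12 h of darkness. The genes were chosen by the measured values themselves, out of 692 probes that the platform annotation gives to exactly 1 gene, on an array of 3439 probes. A gene was taken when its mean log2 level lay above the 25th percentile of all probes, its light minus dark mean of normalized log2 values was at least 1, and that difference was positive in each of the 3 pairs of consecutive sample numbers (1 and 2, 3 and 4, 5 and 6). Before any name was left out, 57 single-gene probes met the rule. Of the 7 genes then left out by name, 6 had met it, and Cpn60beta4 had not, since its mean level lay below the 25th percentile.

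The series compared 6 light samples with 6 dark samples of total RNA, all from wild-type plants of the Landsberg ecotype, and named no organ. No plants spent the further 30 min in darkness, so an effect of light and one of the later sampling time cannot be told apart. The labels do not say whether each sample is a separate set of plants, and the spread within a group may be technical. Deposited array medians ran from 0.666 to 0.687 in light, against 0.443 to 0.491 in the dark. All 6 genes fixed as markers of green tissue were measured by a probe of their own, and they lay between percentiles 37.8 and 99.6 of the array in light, against 53.8 and 99.5 in the dark. These markers were not steady between the groups, with log2 differences of -1.26 for LHB1B2, -1.12 for PRK and -0.99 for PSAN, 0.50 for PSBW, and -0.05 and -0.06 for SBPASE and PSBY. Their part in the differences below was not tested.

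When a dark-adapted plant is lit, phytochromes and cryptochromes are activated, repressors of light responses such as COP1 and the PIF factors are withdrawn, and transcription factors such as HY5 accumulate. Photosynthetic electron transport starts at the same time, and its redox state is a further signal from the chloroplast to the nucleus. Many nuclear genes of chloroplast proteins respond to these signals, among them genes of plastid translation, pigment synthesis and photoprotection. None of the 9 early light and clock markers listed for this comparison, HY5 and the ELIP genes among them, had a probe of its own, so the 51 genes cannot be set beside them.

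The gene tables used here give a symbol other than the locus identifier for 1 of the 51 genes, ATATH8. The roles stated below for 25 genes are general knowledge about those loci and were not read from the tables, and a further 25 are given by identifier alone. A gene given by identifier alone may still have a known domain or role, so the groups by role cover only the roles stated. The annotation assigns a single gene to each probe, and whether relatives of large families also hybridize to it was not tested.

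The 51 light minus dark differences ran from 1.02 to 3.21 on the log2 scale of normalized values, with a median of 1.34. Over all 3439 probes the median difference was 0.01. The same conditions of level, size and direction were met by 57 of the 497 single-gene probes above the level limit, 11.5%, and by 293 of 2579 probes of any annotation, 11.4%. At least 4-fold higher signal in light was found for 8 genes, at least 3-fold but under 4-fold for 7, and under 3-fold for 36. These values chose the genes, so they describe them and carry no test. In RNA from many cells, more RNA per cell and more cells that hold a transcript cannot be told apart.

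**Figure D1:**
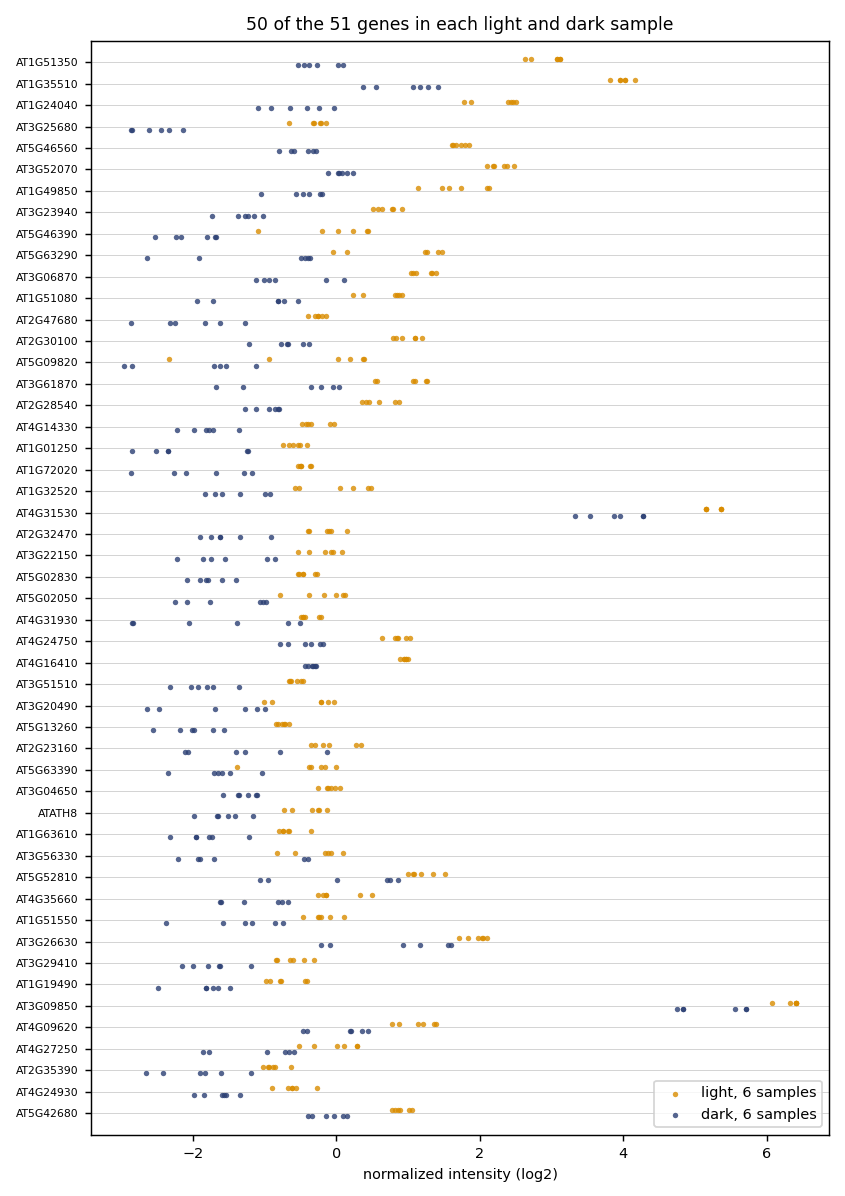
Normalized log2 intensity (horizontal axis) of 50 of the 51 genes (rows, ordered by light minus dark difference) in each of the 6 light samples (orange) and 6 dark samples (blue). Light and dark values overlap for 5 of them.

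The 3 genes at the top of the order stood well apart from the rest. AT1G51350, which encodes a protein of armadillo repeats, a fold that binds other proteins, had deposited intensities of 5.51 to 7.78 (median 6.95) in light, against 0.602 to 0.919 (median 0.675) in the dark. Its difference after normalization was 3.21 on the log2 scale, or 9.23-fold. The groups lay far apart, since the lowest light sample was several times the highest dark one.

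AT1G35510, of the O-fucosyltransferase family, whose members are placed in the secretory pathway, had intensities of 12.2 to 13.9 (median 13.5) in light, against 1.16 to 2.39 (median 2.01) in the dark. Its log2 difference was 3.01, or 8.07-fold, and it was 2.34 with each array centred on its median. It was already a bright probe in the dark, at percentile 94.4 of the array. AT1G24040, of the GNAT family of acetyltransferases, had intensities of 3.20 to 5.22 (median 5.12) in light, against 0.377 to 0.833 (median 0.586) in the dark, a log2 difference of 2.80. Its difference was nearly the same in all 3 pairs of numbers, at 2.79, 2.78 and 2.83.

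A second relative of AT1G35510 by family, AT5G63390, was among the 51 with a far smaller difference of 1.22. Its intensities were 0.452 to 1.12 (median 0.949) in light, against 0.154 to 0.379 (median 0.276) in the dark, and after normalization the light and dark values overlapped through light sample 2. AT4G14330, which encodes a kinesin, a motor protein of microtubules, had intensities of 0.831 to 1.10 (median 0.894) in light, against 0.168 to 0.336 (median 0.237) in the dark, a log2 difference of 1.52. Its light and dark samples did not overlap, and it stood at percentile 66.5 of a light array, against percentile 20.1 of a dark array.

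AT5G02050 and AT4G31930 both belong to a mitochondrial glycoprotein family related to the human protein p32. AT5G02050 had intensities of 0.674 to 1.2 (median 1.08) in light, against 0.170 to 0.421 (median 0.315) in the dark, a log2 difference of 1.34. AT4G31930 had 0.829 to 0.981 (median 0.848) in light, against 0.0483 to 0.605 (median 0.245) in the dark, a difference of 1.33. The 2 differences were thus alike in size, but in AT4G31930 the dark samples were far more scattered, with 2 of the 6 at the floor set for low values, and its difference was 1.94 without samples 3 and 4.

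The 10 genes grouped under plastid proteins and metabolism, AT1G24040 among them, had log2 differences of 1.04 to 2.80, with a median of 1.38. AT3G23940 encodes dihydroxyacid dehydratase, an enzyme of branched-chain amino acid synthesis, and its intensities were 1.53 to 1.94 (median 1.74) in light, against 0.239 to 0.394 (median 0.350) in the dark. Its log2 difference of 2.0 came with narrow groups, and it stood at percentile 91.3 of a light array, against percentile 34.0 of a dark array. AT5G46390, of the C-terminal processing peptidases, a family known in plastids for the maturation of the photosystem II protein D1, had intensities of 0.551 to 1.45 (median 1.22) in light, against 0.138 to 0.272 (median 0.213) in the dark, a difference of 1.99.

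AT5G63290, which resembles the HemN enzymes that oxidize coproporphyrinogen in bacteria, had intensities of 1.09 to 2.84 (median 2.48) in light, against 0.129 to 0.683 (median 0.609) in the dark, a log2 difference of 1.95. Samples 1 and 2 were the low ones in both groups. AT5G09820, of the fibrillins, lipid-associated proteins of the plastid, had intensities of 0.215 to 1.39 (median 1.2) in light, against 0.0865 to 0.397 (median 0.258) in the dark, a difference of 1.58. Light and dark overlapped for this gene, since light sample 2 lay below dark samples 3 to 6, and dark samples 1 and 2 were at the floor.

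AT5G52810 encodes a reductase of pipecolic acid synthesis, a step towards a signal of systemic immunity, and had intensities of 2.07 to 2.88 (median 2.28) in light, against 0.372 to 1.70 (median 1.21) in the dark, a log2 difference of 1.15. The light values were close together and the dark ones spread over several-fold. ATATH8 (AT2G39190), of the ABC1-like atypical kinases, had 0.714 to 1.04 (median 0.928) in light, against 0.200 to 0.382 (median 0.277) in the dark, a difference of 1.18. Its light and dark samples did not overlap, and its difference varied little among the pairs of numbers.

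AT3G29410, of the terpene synthase family, had intensities of 0.656 to 0.931 (median 0.758) in light, against 0.199 to 0.345 (median 0.243) in the dark, a log2 difference of 1.12. AT2G35390, a phosphoribosyl pyrophosphate synthetase, which supplies the sugar phosphate of nucleotides, had 0.594 to 0.762 (median 0.623) in light, against 0.133 to 0.376 (median 0.218) in the dark, a difference of 1.05. It was the 1 gene of the 51 that stayed below the middle of the array in light, at percentile 45.9. AT4G24930, a protein of the thylakoid lumen, had 0.644 to 0.932 (median 0.762) in light, against 0.219 to 0.310 (median 0.267) in the dark, a difference of 1.04.

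The 7 genes with a stated role in transcription or RNA-related proteins had log2 differences of 1.07 to 1.77, with a median of 1.34. AT2G47680, a helicase with zinc fingers, had intensities of 0.883 to 1.03 (median 0.950) in light, against 0.108 to 0.331 (median 0.209) in the dark, a difference of 1.77. AT1G01250, an AP2/ERF transcription factor, had 0.691 to 0.872 (median 0.793) in light, against 0.106 to 0.335 (median 0.183) in the dark, a difference of 1.51, and its 6 light values were close together while its dark values were not. AT1G19490, of the bZIP transcription factors, had 0.595 to 0.859 (median 0.696) in light, against 0.166 to 0.283 (median 0.234) in the dark, a difference of 1.11. Light and dark did not overlap for these 3 genes, and in the dark they stood at percentiles 16.4, 12.2 and 20.8 of the array.

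AT3G22150 and AT5G02830 encode pentatricopeptide repeat proteins, which bind organellar RNA. AT3G22150 had intensities of 0.811 to 1.18 (median 1.05) in light, against 0.168 to 0.449 (median 0.281) in the dark, a log2 difference of 1.35. AT5G02830 had 0.797 to 0.936 (median 0.842) in light, against 0.186 to 0.301 (median 0.246) in the dark, a difference of 1.34. The 2 were thus alike in difference, and neither overlapped between light and dark. AT4G09620, of the mTERF family of organellar gene expression factors, had 1.79 to 2.81 (median 2.36) in light, against 0.635 to 1.23 (median 1.02) in the dark, with a difference of 1.07.

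AT3G09850, with a G-patch domain found in RNA-binding proteins, had the highest signals of the 51, at 53.0 to 77.6 (median 67.2) in light, against 27.1 to 66.5 (median 39.4) in the dark. Its deposited values overlapped between the groups, and its log2 difference of 1.11 after quantile normalization was 0.74 on the values as deposited, 0.20 with each array centred on its median and 1.68 with cyclic loess. The gene was among the highest signals of the array in both groups, where only a few probes fix the normalized scale. Its place among the 51 therefore depends on the scaling. AT4G31530, with the next highest signals and no role stated, had 35.2 to 48.2 (median 40.2) in light, against 10.6 to 21.3 (median 15.9) in the dark, with a difference of 1.38 after quantile normalization, 0.82 with centred arrays and 2.19 with cyclic loess. Its deposited values did not overlap.

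Of the remaining genes with a stated domain, AT1G49850 has a RING finger, typical of ubiquitin ligases. AT1G51550 has an F-box with kelch repeats, typical of the substrate-binding part of such ligases. AT1G49850 had intensities of 2.32 to 4.03 (median 3.07) in light, against 0.384 to 0.765 (median 0.626) in the dark, a log2 difference of 2.17. AT1G51550 had 0.826 to 1.2 (median 0.983) in light, against 0.160 to 0.473 (median 0.353) in the dark, a difference of 1.14. Both were separated between light and dark, the first by far more than the second.

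The 25 genes for which no role is stated had log2 differences of 1.02 to 2.23, with a median of 1.30. AT3G25680 had the largest of these, 2.23, at intensities of 0.730 to 1.03 (median 0.954) in light, against 0.110 to 0.184 (median 0.141) in the dark, and 2 of its 6 dark values were at the floor. AT5G46560 had 3.04 to 3.71 (median 3.23) in light, against 0.465 to 0.686 (median 0.607) in the dark, a difference of 2.22. AT3G52070 had 4.01 to 5.21 (median 4.45) in light, against 0.792 to 1.06 (median 0.931) in the dark, a difference of 2.21. AT5G46560 and AT3G52070 were narrow in both groups, and neither had a value at the floor.

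AT3G06870 followed, with intensities of 2.13 to 2.61 (median 2.39) in light, against 0.368 to 0.968 (median 0.432) in the dark and a log2 difference of 1.87. The log2 differences of AT1G51080, AT2G30100, AT3G61870, AT2G28540, AT1G72020 and AT1G32520 were 1.77, 1.69, 1.56, 1.55, 1.44 and 1.41. Those of AT2G32470, AT4G24750, AT4G16410, AT3G51510, AT3G20490, AT5G13260 and AT2G23160 were 1.36, 1.30, 1.30, 1.28, 1.28, 1.25 and 1.23. AT4G16410 was the most even of the 51, with intensities of 1.92 to 2.11 (median 2.05) in light, against 0.596 to 0.699 (median 0.679) in the dark.

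The differences of AT3G04650, AT1G63610, AT3G56330, AT4G35660, AT3G26630 and AT4G27250 were 1.2, 1.16, 1.15, 1.15, 1.13 and 1.07 on the log2 scale. AT5G42680, at 1.79 to 2.19 (median 1.94) in light, against 0.630 to 1.01 (median 0.797) in the dark, had the smallest difference of the 51, 1.02. It and AT4G24930 and AT2G35390, at 1.04 and 1.05, were the 3 genes just inside the limit of 1.

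Just outside the limit, with the other conditions met, stood AT3G24190, AT1G50770 and AT1G50750, at 0.998, 0.998 and 0.994. AT3G24190 had intensities of 0.686 to 0.922 (median 0.854) in light, against 0.218 to 0.414 (median 0.271) in the dark. AT1G50770 had 2.01 to 2.36 (median 2.23) in light, against 0.723 to 1.27 (median 0.856) in the dark, and AT1G50750 had 1.07 to 1.19 (median 1.16) in light, against 0.246 to 0.842 (median 0.371) in the dark. On the deposited values light and dark did not overlap for any of the 3, and after normalization they overlapped for AT1G50750. A further 8 single-gene probes reached a difference of 1 but lay below the limit on mean level.

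The place of a probe within its own array does not depend on how arrays are scaled to each other. It ranks signals, not transcript amounts, because probes differ in how well they hybridize. Quantile normalization keeps the order of probes within an array, and the rule chose genes that were higher in light after it. Higher places in light therefore follow from the rule, and they describe the genes without testing them. The median gene of the 51 stood at percentile 80.0 of a light array, against percentile 32.8 of a dark array. For all 497 single-gene probes above the level limit the medians were 63.4 in light and 60.5 in the dark. In light, 21 of the 51 genes were in the top 10% of the array, against 4 in the dark. In light 1 was below the middle of the array, against 33 in the dark. By definition 10% of the probes of a single array lie in its top 10%, and as many lie below its middle as above it. The dark count of 4 of the 51 in the top 10% was close to that share. Counts of median places were not made for the other probes. The dark places of the genes were very different, between percentile 10.5 for AT3G25680 and percentile 99.8 for AT3G09850.

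**Figure D2:**
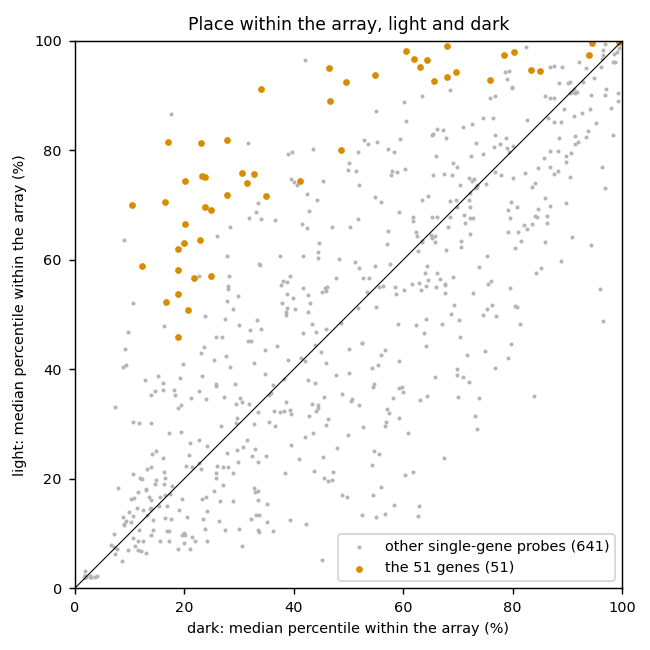
Median percentile within the array over the 6 light samples (vertical axis, %) against that over the 6 dark samples (horizontal axis, %) for the 692 single-gene probes. Orange points are the 51 genes, grey points the rest, and the line marks equal places. The 51 genes lie above the line, 33 of them left of the middle of the dark axis.

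After normalization the lowest light value exceeded the highest dark value for 46 of the 51 genes, and for 650 of all 3439 probes, 18.9%. The 5 genes with overlapping groups were AT5G09820, AT3G20490, AT2G23160, AT5G63390 and AT3G56330. On the deposited values 47 of the 51 did not overlap, the exceptions being AT5G09820, AT3G56330, AT3G26630 and AT3G09850. On that scale the share of all probes without overlap was not counted, and their median difference was 0.44. The count of 47 therefore carries no comparison with the array. In the fit of limma to all probes, 811 of 3439, 23.6%, were called higher in light, and all 51 genes were among them. With the 2 numbers of a pair averaged, 42 of the 51 genes and 520 of all probes were called. With centred arrays 48 of the 51 genes and 686 of all probes were called. The rule used the same contrast, so none of these counts of the 51 genes says more than the rule did. No gene had a light value at the floor, while 6 had at least 1 dark value there, namely AT3G25680, AT5G09820, AT4G31930, AT2G47680, AT1G01250 and AT1G72020. For these 6 the size of the difference depends on this floor. A higher floor reached other genes too. With the floor at the 10th percentile AT2G35390 had a difference of 0.957, below the limit of 1.

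The size of the difference varied among the 3 pairs of consecutive numbers. Its median over the 51 genes was 1.45 for samples 1 and 2, 1.32 for samples 3 and 4 and 1.52 for samples 5 and 6. It was at least 1 in every pair for 28 genes, and under 0.5 in at least 1 pair for 6. Samples 5 and 6 gave the largest of the 3 differences for 25 genes, samples 1 and 2 for 14 and samples 3 and 4 for 12.

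The widest range was that of AT4G31930, with log2 differences of 1.49, 0.13 and 2.38 in the 3 pairs. Its dark values in samples 5 and 6 were both at the floor, so the 2.38 depends on the floor. AT5G52810 had 2.13, 1.08 and 0.23, and AT3G26630 had 0.46, 0.73 and 2.19. The pair with the smallest difference was thus not the same in these 3 genes, and this variation was not tested. AT2G23160, AT3G56330 and AT2G35390 were the other genes with a pair under 0.5, each in samples 3 and 4, at 0.31, 0.31 and 0.47.

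**Figure D3:**
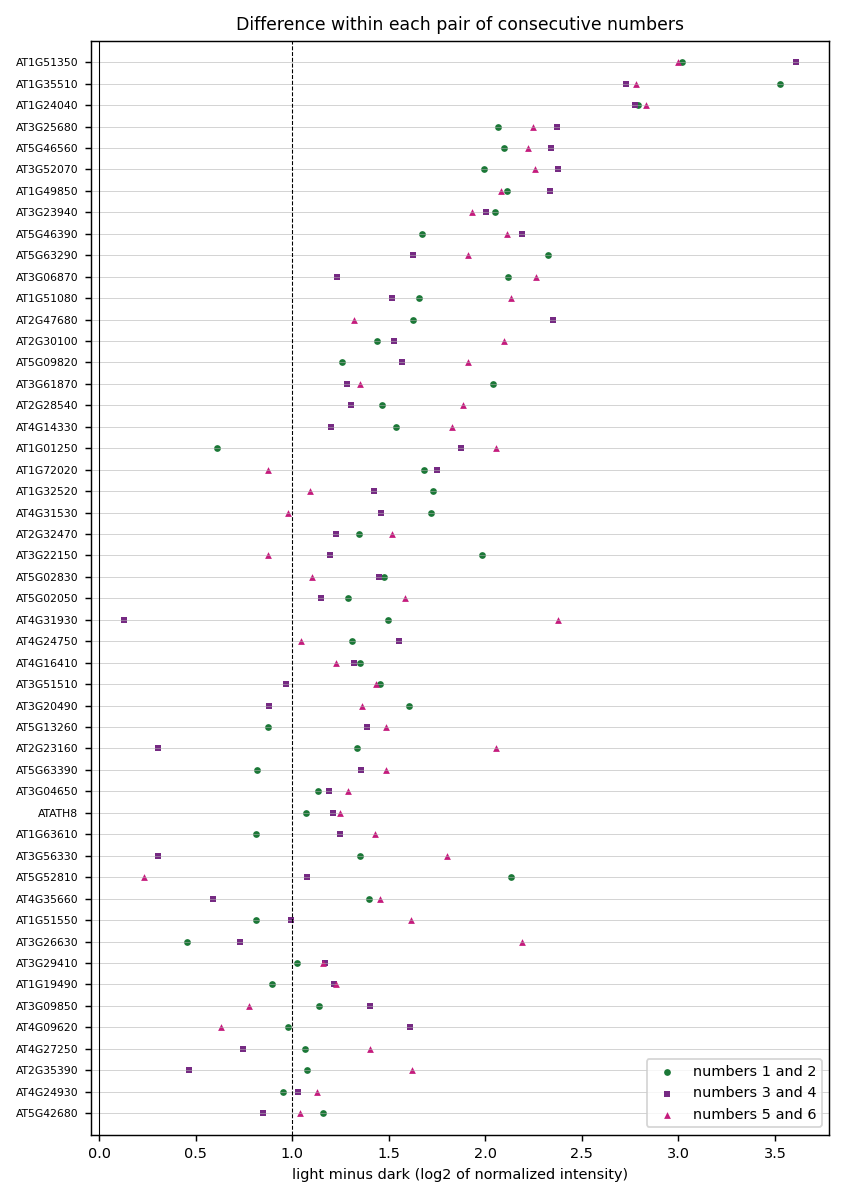
Light minus dark difference (horizontal axis, log2 of normalized intensity) of 50 of the 51 genes (rows) within samples 1 and 2 (circles), 3 and 4 (squares) and 5 and 6 (triangles). The dashed line marks the limit of 1 for the mean. All points lie above 0, as the rule required, and AT4G31930 has the lowest, at 0.13.

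The pair means ranged more widely in the dark than in light. The range of the 3 pair means of a gene had a median of 0.36 on the log2 scale in light, against 0.68 in the dark, and it was wider in the dark for 38 of the 51 genes, 74.5%. Over all 2579 probes above the level limit the medians were 0.33 in light and 0.52 in the dark, and the dark range was wider for 72.2%, so a wider dark range was common over the array. The standard deviation over the 6 samples of a group had a median of 0.20 in light, against 0.39 in the dark, for the 51 genes, and of 0.18 in light, against 0.29 in the dark, for the 2579 probes.

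The rule used the mean level and the light minus dark difference of a gene, but not how its level, averaged over light and dark, varied among the pairs. Both come from the same samples, and a low dark pair can enter both, as in AT3G26630, so the test is given as a description of the genes. The level was tested among the 3 pairs of consecutive numbers by a moderated F test of limma over all 3439 probes, on the 6 means of equally numbered samples. The level differed for 21 of the 51 genes, 41.2%, for 1029 of all probes, 29.9%, and for 855 of the 2579 probes above the level limit, 33.2%, at an adjusted p under 0.05. On the light samples alone 17 of the 51 genes and 734 of all 3439 probes were called. On the dark samples alone 19 of the 51 genes and 929 of all probes were called. Without adjustment 30 of the 51 genes and 1603 of all probes had a p under 0.05. Whether the share of the genes differs from that of all probes was not tested. The 2 numbers of a pair may be repeat readings, so these p-values may be too small.

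The strongest was AT3G20490, with pair means of -0.95, -0.17 and -0.12 in light, against -2.55, -1.05 and -1.48 in the dark (normalized log2 level, limma F test, adjusted p = 0.00451). Samples 1 and 2 were low in both groups for this gene. AT5G63290 was also lowest in samples 1 and 2, with 0.05, 1.25 and 1.45 in light, against -2.28, -0.38 and -0.46 in the dark (limma F test, adjusted p = 0.00866).

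AT3G26630 had 2.03, 1.77 and 2.04 in light, against 1.58, 1.04 and -0.15 in the dark, where samples 5 and 6 were low (limma F test, adjusted p = 0.00851).

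**Figure D4:**
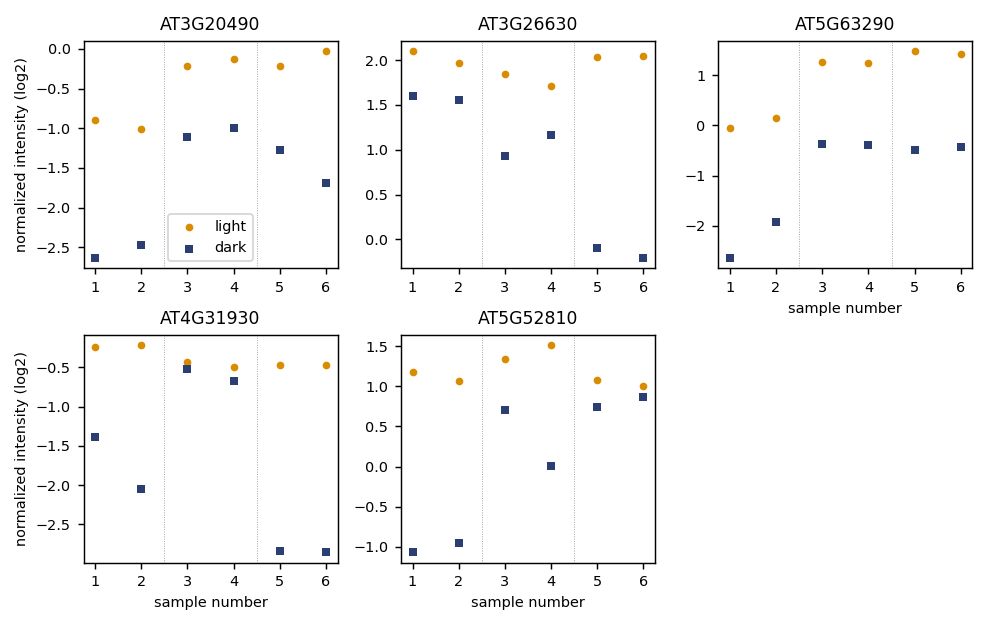
Normalized log2 intensity (vertical axis) against sample number (horizontal axis) in light (circles) and dark (squares) for 5 genes, with dotted lines between the pairs of consecutive numbers. The first 3 genes are among the 4 with the strongest difference in level among the pairs. AT4G31930 and AT5G52810 have the widest ranges of light minus dark differences. Dark pair means of AT4G31930 ran from -2.84 in samples 5 and 6, both at the floor, to -0.59 in samples 3 and 4.

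The differences also moved with the scaling. On the values as deposited all 51 were positive and 50 were at least 1, the exception being AT3G09850. With cyclic loess all 51 were at least 1, and with each array centred on its median 44 were. The 7 genes below 1 with centred arrays were AT3G09850, AT3G26630, AT5G42680, AT4G09620, AT4G31530, AT5G52810 and AT4G27250. The median of the 51 was 1.81 as deposited, 1.27 with centred arrays and 1.33 with loess, where the medians of all probes were 0.44, -0.10 and 0.04.

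**Figure D5:**
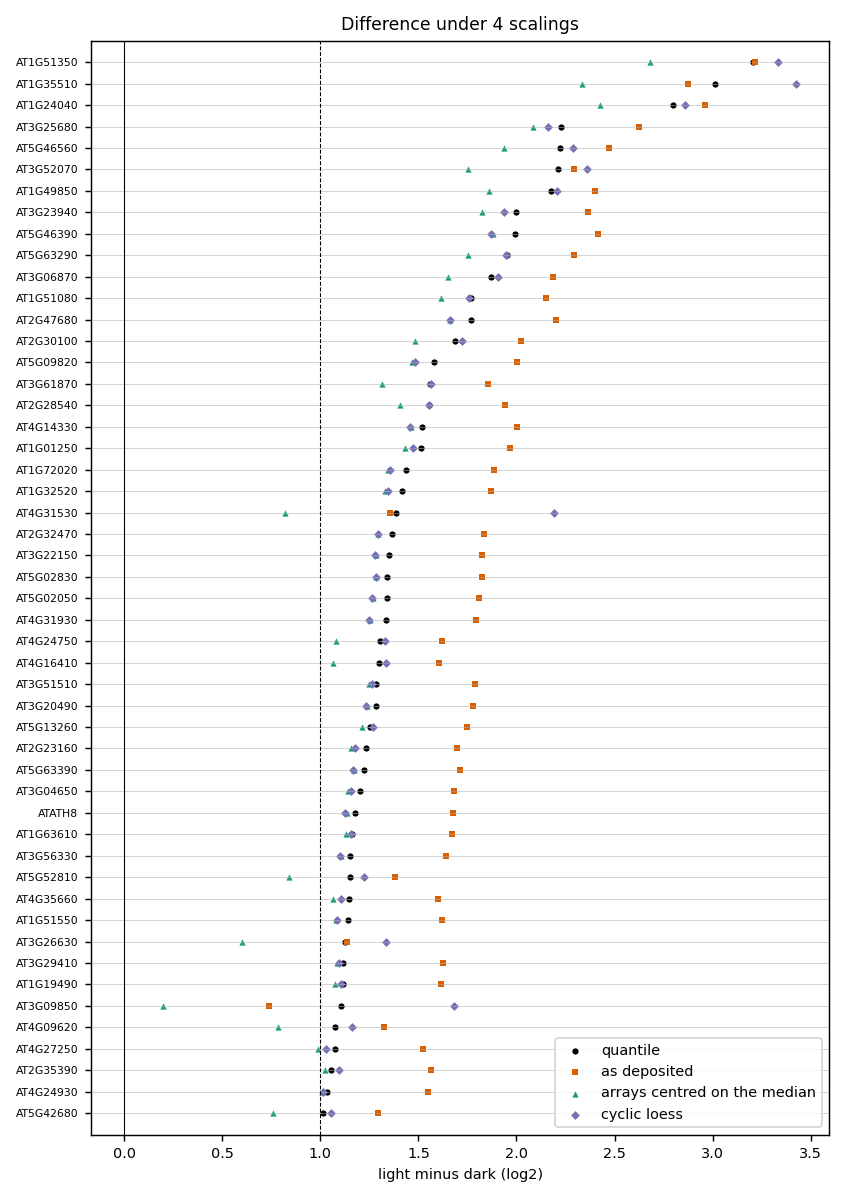
Light minus dark difference (horizontal axis, log2) of 50 of the 51 genes (rows) after quantile normalization (circles), on the values as deposited (squares), with arrays centred on the median (triangles) and after cyclic loess (diamonds). The dashed line marks 1, and 7 genes lie below it under at least 1 scaling. AT3G09850 has the lowest value, 0.20 with centred arrays.

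By gene order in the genome table, within 3 protein-coding genes of a member, 7 pairings with a gene measured by its own probe were found, and CRR41, close to AT1G51080, was the 1 neighbour with a log2 difference of at least 1, at 1.36 (median intensities of 1.06 in light and 0.328 in the dark). CRR41 was 1 of the 7 genes left out by name. The nearest measured neighbour of any member, AT3G51500 beside AT3G51510, had the opposite sign, at -1.08, with median intensities of 1.33 in light and 2.32 in the dark.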

How the data were processed

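Total RNA of 6 light and 6 dark samples was measured on an array of 3439 probes. The authors deposited linear intensities between 0 and 100. The highest value was 100 in each dark array, against 65.7 to 77.6 in the light arrays. How they corrected background and scaled arrays is not given in the sources used here, and no measure of background or of depth accompanies the values. The number of samples limits the precision. Groups and numbers 1 to 6 were taken from the sample titles, and all 12 columns were used.

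Values were quantile-normalized, floored at the 5th percentile of each array's positive values, and put on the log2 scale. Light was set against dark in a limma model (version 3.58.1, R 4.3.3) of all probes, with Benjamini-Hochberg adjustment and two-sided tests. Levels among the pairs of consecutive numbers were tested by the moderated F test of limma on means of equally numbered samples. Both fits were tested on simulated data. The simulated samples were drawn independently of each other, so the effect of repeat readings or of samples that vary together was not covered. Percentiles within an array are of the deposited values.

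The platform annotation names 1 gene for 692 probes, several for 870 and none for 1877. A gene table of the TAIR10.1 assembly, used for symbols and neighbours, held 690 of the 692 identifiers. The genome build of the probes is not stated, so no coordinates are printed. Promoter sequences were not used here, and motifs were not searched.

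The genes and lists were chosen with earlier results of these data known. Of the 51 genes, 50 are named, and 1 is counted but not reported here. Intensities in each group are given for the 12 largest differences, for genes with a stated role, and for the 3 genes nearest to the limit on each side. AT4G16410 and AT4G31530 were also described after their values were seen. Of the strongest 4 in the test among pairs 3 are described, as are values at the floor.

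It was checked whether equal numbers pair the samples. Light and dark samples of one number deviated together from their group means (correlations of 0.41 to 0.65 across probes), and all 6 dark samples were closest to the light sample of their own number. Since each correlation was over 0.1 the numbers count as pairing the samples. The main model of light against dark left this pairing out. A fit with the numbers as a block was an alternative to it, and called 966 probes higher in light. The labels do not explain the numbers. Alternatives were the scaling, the floor, the limits of the rule, leaving out a pair of numbers, averaging pairs and a replicate block.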

Additional observations from a re-analysis of the deposited data

Results flagged for a closer look

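In 102 groups of 6 values (51 genes in light and in the dark), 5 held 1 sample that lay far outside the rest, which chance gives in about 1 group in 20. On the normalized log2 scale, AT3G25680 had -0.657 in light sample 6, against -0.322 to -0.147 in the other light samples. AT5G63390 stood at -1.39 in light sample 2, against -0.385 to -0.00457, and dark sample 2 was also its lowest in the dark. AT1G63610 stood at -0.355 in light sample 4, against -0.806 to -0.665. Dark sample 4 had -2.49 for AT1G19490, while the remaining dark samples had -1.82 to -1.48. AT3G09850 stood at 6.07 in light sample 4, against 6.32 to 6.40. The cause was not tested for any of the 5.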

How the results depend on the processing

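The rule gave 51 genes. On the values as deposited it gave 120, 50 of them among the 51, where the array as a whole had a median difference of 0.44. A limit on mean level at the median gave 28, a difference of at least 0.8 gave 80 and one of at least 1.2 gave 36, as fewer or more genes could pass. Centred arrays gave 45 (44 of the 51) and cyclic loess 57 (all 51). A floor at the 1st percentile gave 52 (all 51) and one at the 10th percentile 52 (50 of the 51). No limit on level gave 58, and no condition on the pairs the same 51. Without samples 1 and 2, 3 and 4, or 5 and 6 the rule gave 56, 59 and 53, with 47, 47 and 42 of the 51. Probes called higher in light numbered 811. They numbered 1715 as deposited, and 520 with pairs averaged, with fewer samples, where 42 of the 51 genes were called. With the replicate block 966 were called, and all 51 were among them. With centred arrays 48 of the 51 were called. The other counts, those of the test among pairs included, stayed within 1.5 times. All 51 differences stayed positive under every scaling, floor and left-out pair. For the left-out pairs this followed from the rule, which required a positive difference in each pair, so it is no further support. On the values as deposited no difference moved by over 1.5-fold, and under the other settings 4 did. With centred arrays AT1G35510 moved to 2.34 and AT3G09850 to 0.20. AT4G31530 moved to 2.19 with loess, and AT4G31930 to 1.94 without samples 3 and 4. The cause of these moves was not tested.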
